A study of Drosophila melanogaster with 6 samples.

Results

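The conserved oligomeric Golgi (COG) complex was followed through the 8 genes that encode its subunits in Drosophila melanogaster, Cog1, Cog2, Cog3, Cog4, fws (the fly Cog5 subunit), Cog6, Cog7 and Cog8. Members were the probe sets whose symbol in the platform annotation is one of these names. That gave 7 probe sets for 7 genes, of 11982 genes with a probe set of their own, and no probe set was named Cog3, so Cog3 was not analysed here. RNA came from whole embryos of 2 genotypes, CrebA null mutants (3 arrays) and wild type (3 arrays), hybridised to Affymetrix Drosophila Genome 2.0 arrays. CrebA is a bZIP transcription factor, and the series title names the secretory pathway genes as its subject. All embryos were collected over 8 h and were 11 h older when RNA was extracted. The labels place them at stages 11 to 15 in one field and 11 to 17 in another. The mutants were picked with a COPAS biosorter as embryos without a GFP-marked balancer chromosome, and wild-type embryos went through the same instrument. The labels name no allele, and the annotation names no CrebA probe set, so CrebA itself was not analysed here and could not check the labels.

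COG is a tether of the Golgi. It catches the vesicles that carry Golgi enzymes backwards between cisternae, holds them near their target membrane, and works there with golgins, Rab GTPases and SNAREs. Its subunits form lobe A (Cog1 to Cog4) and lobe B (Cog5 to Cog8), which Cog1 and Cog8 join. Loss of COG subunits in human cells mislocalises Golgi enzymes and disturbs glycosylation, and in flies fws and Cog7 are known for their part in the division of male germ cells.

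Values were log2 expression levels made by robust multi-array averaging (RMA) with array medians of 5.48 to 5.60. Having 3 arrays a genotype limits the precision, and since the labels do not tie replicates to separate collections, the spread behind the p-values may be technical. In both genotypes replicate 2 stood apart on the first principal component (20.1 for the mutant and 53.5 for wild type, against -36.8 to -3.20 for the other arrays, 53.5% of the variance). Arrays of the same replicate number deviated together, but arrays 1 and 3 also did so across numbers (r 0.566 and 0.371). How replicates 1 and 3 pair is thus not settled. Counts of calls are given without and with the replicate number as a block. All 7 COG probe sets exceeded, on all 6 arrays, the brightest of 17 Affymetrix Tag controls, whose sequences are foreign to flies (4.71 to 5.28 by array).

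COG transcripts were lower in CrebA null mutants than in wild type for every measured subunit, by modest amounts. The median log2 change of the 7 genes was -0.42, or 1.34-fold lower, against a median of -0.021 over all 11982 genes, of which 54.5% had a negative change. Single changes ran from -0.29 (1.22-fold lower, fws) to -0.77 (1.71-fold lower, Cog7). Cog1 passed the test (limma, Benjamini-Hochberg over all 18769 probe sets, adjusted p under 0.05) and 6 did not, beside a background of 1.02% of genes called lower and 1.9% called higher. With the replicate block 6 of the 7 were called lower, all but fws, beside a background of 9.21% of genes called lower and 12.6% called higher. An unadjusted p under 0.05 was found for 5 of the 7, against 7.73% of genes in the same direction. Mutant and wild-type values did not overlap for Cog1, Cog4, Cog6 and Cog7, 4 of 7, where 10.2% of genes were lower without overlap.

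**Figure D1:**
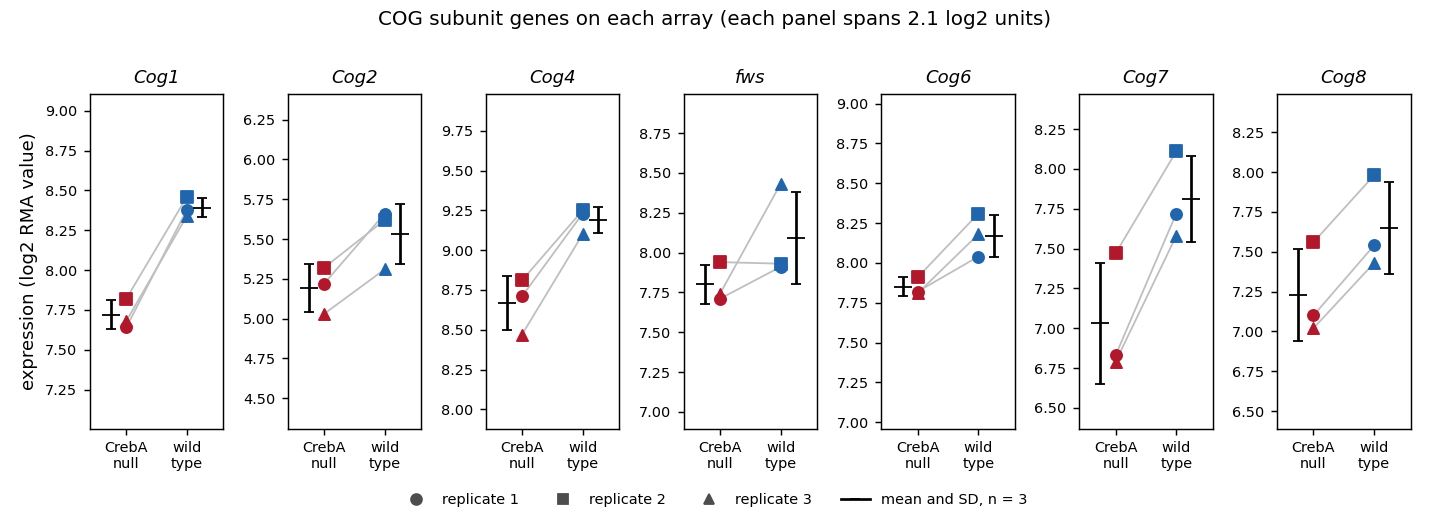
Expression (log2 RMA value) of the 7 measured COG genes on each array, CrebA null mutants in red and wild type in blue, with symbols for the replicate number, grey lines joining arrays of the same number and bars for mean and SD (n = 3). Each panel has its own level scale of the same height. The mutant points lie below the wild-type points in Cog1, Cog4, Cog6 and Cog7, and the replicate 2 squares are the highest of both genotypes in 5 genes, Cog1, Cog4, Cog6, Cog7 and Cog8.

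Lobe A came first. Cog1, which in yeast and mammals helps to hold the lobes together, is read by probe set 1638465_at. It measured 7.64, 7.82 and 7.68 in mutant replicates 1, 2 and 3, against 8.38, 8.46 and 8.34 in wild type. The groups were separated by 0.514 between the highest mutant and the lowest wild-type array, the widest gap among the 7 members. The level fell to 7.72 ± 0.09 in mutants, against 8.39 ± 0.06 in wild type (SD, n = 3 each), a log2 change of -0.68 (SE 0.09, 95% interval -0.89 to -0.47, limma adjusted p 0.0228). This is 62.6% of the wild-type level, and 3.13% of all genes had a more negative change. The call was lost without mutant replicate 1 (adjusted p 0.112), mutant replicate 3 (0.097), wild type replicate 1 (0.119), 2 (0.054) or 3 (0.0683), fits in which the genes called lower in the whole table numbered 11 to 82 rather than 122. It was also lost with an intensity trend in the variance model (0.102).

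Cog4, a lobe A subunit that binds Golgi SNAREs and their regulator Sly1 in mammalian cells, is read by probe set 1623203_at. Its values were 8.71, 8.81 and 8.47 in the mutants and 9.23, 9.25 and 9.10 in wild type. All mutant arrays lay below all wild-type arrays, by at least 0.290. The log2 change was -0.53 (SE 0.11, 95% interval -0.80 to -0.25), which missed the threshold without the block (limma adjusted p 0.0825) and passed it with the block (0.00703).

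Cog2, whose mammalian counterpart is known from mutant cells whose LDL receptors are poorly glycosylated, is read by probe set 1633420_at. It measured 5.22, 5.32 and 5.03 in the mutants, against 5.66, 5.62 and 5.31 in wild type. It was the member nearest to the foreign controls, and its groups met at mutant 2 and wild type 3. The log2 change was -0.35 (SE 0.13, 95% interval -0.67 to -0.02), with a limma adjusted p of 0.317 without the block and 0.0292 with it.

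In lobe B, Cog7, needed for Golgi structure and cytokinesis in fly spermatocytes, is read by probe set 1631831_at. Its values were 6.83, 7.47 and 6.79 in the mutants and 7.72, 8.11 and 7.58 in wild type. The groups did not overlap, by 0.111, although replicate 2 exceeded the mean of replicates 1 and 3 by 0.66 in the mutants and by 0.46 in wild type. The change of -0.77 was the largest of the 7 in size and had the widest interval (SE 0.23, -1.34 to -0.21). Its limma adjusted p was 0.185 without the block and 0.00252 with it. When replicate 2 of both genotypes was left out, the change was -0.84 and the adjusted p 0.0164.

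Cog8, the lobe B subunit that contacts Cog1 in yeast and mammals, is read by probe set 1631891_at. It measured 7.10, 7.56 and 7.02 in the mutants, against 7.54, 7.98 and 7.43 in wild type. Mutant 2 lay above wild type 1 and 3, so the groups overlapped. Replicate 2 stood 0.50 above the mean of the other arrays of its genotype in both genotypes, and within each replicate number the mutant was lower by a similar amount (-0.44, -0.43 and -0.41). The log2 change was -0.42 (SE 0.20, 95% interval -0.92 to 0.07), with a limma adjusted p of 0.459 without the block and 0.0111 with it. Without wild type replicate 2 the change was -0.26.

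Cog6, a lobe B subunit that binds Golgi SNAREs in mammalian cells, is read by probe set 1631304_a_at. Its values were 7.82, 7.91 and 7.81 in the mutants and 8.04, 8.31 and 8.18 in wild type, with no overlap. The log2 change was -0.33 (SE 0.10, 95% interval -0.56 to -0.09), with a limma adjusted p of 0.179 without the block and 0.036 with it.

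The gene fws is read by probe set 1626224_s_at, a type of probe set whose probes can match more than 1 transcript. It measured 7.71, 7.94 and 7.74 in the mutants, against 7.91, 7.93 and 8.43 in wild type. Wild type 3 stood above the other 5 arrays, and mutant 2 lay at the level of wild type 1 and 2. The log2 change of -0.29 (SE 0.16, 95% interval -0.69 to 0.11) did not pass the limma test without the block (adjusted p 0.564) or with it (0.245). Without wild type replicate 3 the change was -0.12, and without replicate 2 of both genotypes it was -0.44.

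**Figure D2:**
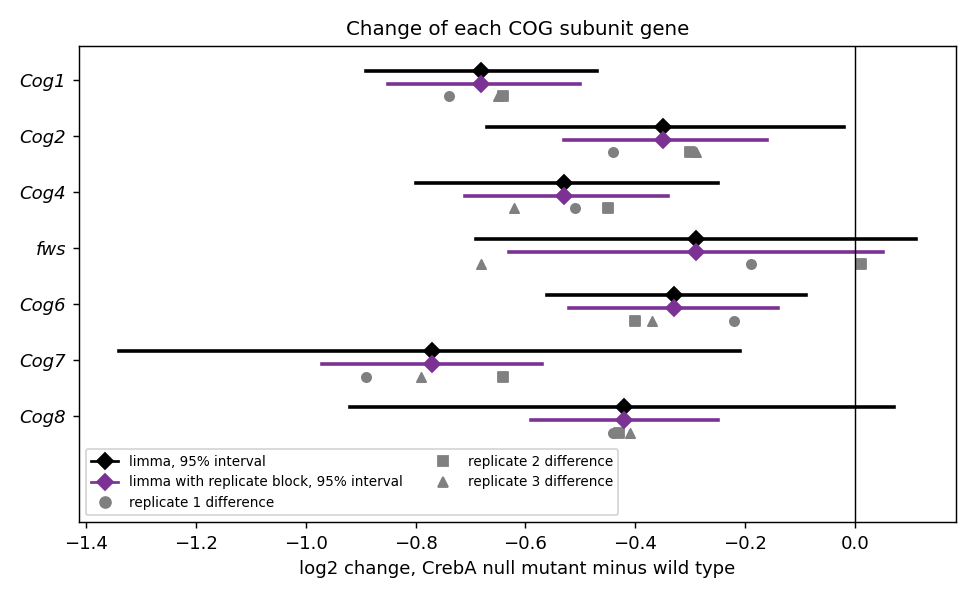
Log2 change (CrebA null mutant minus wild type, x axis) of each COG gene from limma (black) and limma with the replicate block (purple), with 95% intervals, and the difference between arrays of the same replicate number (grey symbols). The intervals of fws span 0 in both fits, that of Cog8 spans 0 in the fit without the block alone, and 20 of the 21 same-number differences are below 0.

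Taken by replicate number, 20 of 21 differences between mutant and wild type were negative, and the exception was fws in replicate 2 (0.01). The median difference over the 7 genes was -0.44 in replicate 1, -0.43 in replicate 2 and -0.62 in replicate 3. A negative difference in all 3 replicate numbers was found for 6 of the 7 members and for 28.8% of all genes. The median change was -0.53 for the 3 measured lobe A genes and -0.38 for the 4 lobe B genes, and the ranges of the lobes overlapped.

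Whether single subunits changed by more or less than the rest was asked within arrays, as each member's level minus the mean of the other 6. The mutant minus wild-type difference of this measure was -0.34 for Cog7, -0.23 for Cog1 and -0.05 for Cog4, against 0.07 for Cog8, 0.16 for Cog2, 0.18 for Cog6 and 0.22 for fws. For Cog1, the member already known to be called, the measure was 0.42 ± 0.11 in mutants and 0.65 ± 0.05 in wild type (SD, n = 3 each). Its exact two-sided permutation p was 0.1, the smallest that 3 arrays against 3 can give, and after adjustment over the 7 tests it was 0.467. The other exact p-values were 0.2 to 0.6, so no member was shown to differ from the others by this test, which cannot reach 0.05 with 3 arrays against 3.

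Across the 6 arrays, the members' profiles were alike, as a description only, since all points share arrays, genotype and replicate. Pearson's r over the 21 member pairs had a median of 0.84 and ran from 0.20 (Cog2 with fws) to 0.97 (Cog7 with Cog8). The gene fws was least like the rest, with a median r of 0.49 with the other members, against 0.83 to 0.91 for the others. The mean of the centred COG profiles was -0.30, -0.05 and -0.37 in mutants 1, 2 and 3, against 0.19, 0.36 and 0.17 in wild type. Mutant 2 was thus the mutant array nearest to wild type, and wild type 2 was the highest array.

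Among 5254 other named genes above the foreign controls, the 5 with the profile most like the COG mean over 6 arrays were nur, pins, frtz, loj and slv, with r of 0.993 to 0.997. Of these, loj encodes a p24 cargo receptor protein (log2 change -1.33, SE 0.25, limma adjusted p 0.0575) and pins a regulator of spindle orientation (-0.73, SE 0.18, adjusted p 0.115). None of the 5 was called by limma without the block, and 4 of them, all but nur, were called lower with it. The 5 genes most like Cog1 were Pgant6, mex1, Su(var)3-7, Ugalt and TRAM, with r of 0.994 to 0.999. All 5 were called lower without and with the block, beside 1.02% and 9.21% of all genes. Both sets of 5 were picked on the same 6 arrays for likeness to profiles that were lower in mutants. Their calls thus follow in part from the choice and are no separate result. Pgant6, an enzyme that starts mucin-type O-glycans, had a log2 change of -1.07 (SE 0.11, limma adjusted p 0.012), and the heterochromatin gene Su(var)3-7 had one of -0.53 (SE 0.09, adjusted p 0.0433).

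Genes beside the COG genes on the chromosome had changes of both signs. Of 18 nearest or overlapping protein-coding neighbours in RefSeq's Release 6 gene table, 15 had a probe set. Limma called 0 of them, 1 had an unadjusted p under 0.05, and 8 of 15 changes were negative, with a median of -0.07. Of all genes, 54.5% had a negative change. The neighbours Drep2 (mean 4.1 in mutants and 3.85 in wild type) and alpha-Man-Ic (3.92 and 4.02) lay under the brightest foreign control. With the block CG4860, beside Cog1, was called lower and CG6144 and spz4, beside Cog4 and Cog8, were called higher, 3 of 15 in all. The block called 9.21% of all genes lower and 12.6% higher, so these counts are near the background. Where a measured neighbour overlaps a member, its change was -0.08 (SE 0.24) for Hibch at Cog2, 0.05 (SE 0.45) for Grip75 at Cog4 and 0.25 (SE 0.14) for Mad1 at Cog6.

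The partners of COG at the Golgi were set beside it by counts and medians over lists chosen with earlier results of these data known. COPI is the coat of the retrograde vesicles that COG tethers. Of 12 genes listed under COPI coat and ArfGAPs, 9 were measured, and beta'COP, Arf79F and garz were not. Of the 9, which include Sec71, an Arf exchange factor gene, 2 fell, 0 rose and 7 were not called. Of all genes, 1.02% were called lower and 1.9% higher. Their median change was -0.82 and all 9 changes were negative. With the block 8 were called lower, all but Sec71, beside 9.21% of all genes called lower and 12.6% called higher. The coat subunit gene alphaCOP fell to 9.55 ± 0.22 in mutants, against 10.63 ± 0.21 in wild type (SD, n = 3 each). ArfGAP1, a GTPase-activating protein that acts in uncoating, had a log2 change of -0.96 (SE 0.13, limma adjusted p 0.0253). The centred list mean had the array order of the COG mean among the mutants, at -0.52, -0.18 and -0.59 in mutants 1, 2 and 3, against 0.38, 0.72 and 0.19 in wild type.

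Of 36 listed golgin, Golgi SNARE and Rab genes 26 were measured, and Rab1, Rab6 and Syx5 were among those not measured. Of the 26, 3 fell, 0 rose and 23 were not called, beside 1.02% of all genes called lower and 1.9% called higher. The median was -0.09, with 18 negative and 8 positive changes. With the block 10 were called lower, beside 9.21% of all genes, and 2 higher, under the share of 12.6% of all genes. The fallen genes were GM130 (-1.26, SE 0.21, limma adjusted p 0.0462), a golgin of the cis-Golgi matrix, its partner Grasp65 (-1.25, SE 0.15) and the SNARE gene Sec20 (-1.21, SE 0.09). Sec20 is known as a SNARE of the ER that works with the Dsl1 tether, so its call is not that of a COG partner. Named after its values were seen, for Sly1's link to Cog4, Slh had a change of -0.55 (SE 0.24), which was called with the block (adjusted p 0.00487) and not without it (0.393).

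Other multisubunit tethers, the exocyst, GARP and EARP, Dsl1, TRAPP and HOPS complexes, are relatives of COG by structure or task, and the list also holds rod, a kinetochore partner of the Dsl1 subunit Zw10. Limma called 0 of 30 measured genes in either direction, with 4 negative and 1 positive change at an unadjusted p under 0.05 and a median of -0.08. With the block 3 were called lower and 1 higher, near the 9.21% of all genes called lower and under the 12.6% called higher. The brightest members, the HOPS gene lt and the TRAPP gene Bet5, had changes of 0.00 (SE 0.26) and 0.32 (SE 0.14). Of 32 measured genes of Golgi glycosylation enzymes, the cargo of COG-tethered vesicles, 1 fell and 1 rose, with a median of -0.15. Of all genes, 1.02% were called lower and 1.9% higher. With the block 4 of the 32 were called lower and 4 higher, near the 9.21% and 12.6% of all genes. Besides Pgant6, Mgat2, which builds N-glycan branches, had 8.64, 8.59 and 8.58 in the mutants, against 8.06, 8.06 and 7.89 in wild type (log2 change 0.60, SE 0.08, limma adjusted p 0.0283).

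**Figure D3:**
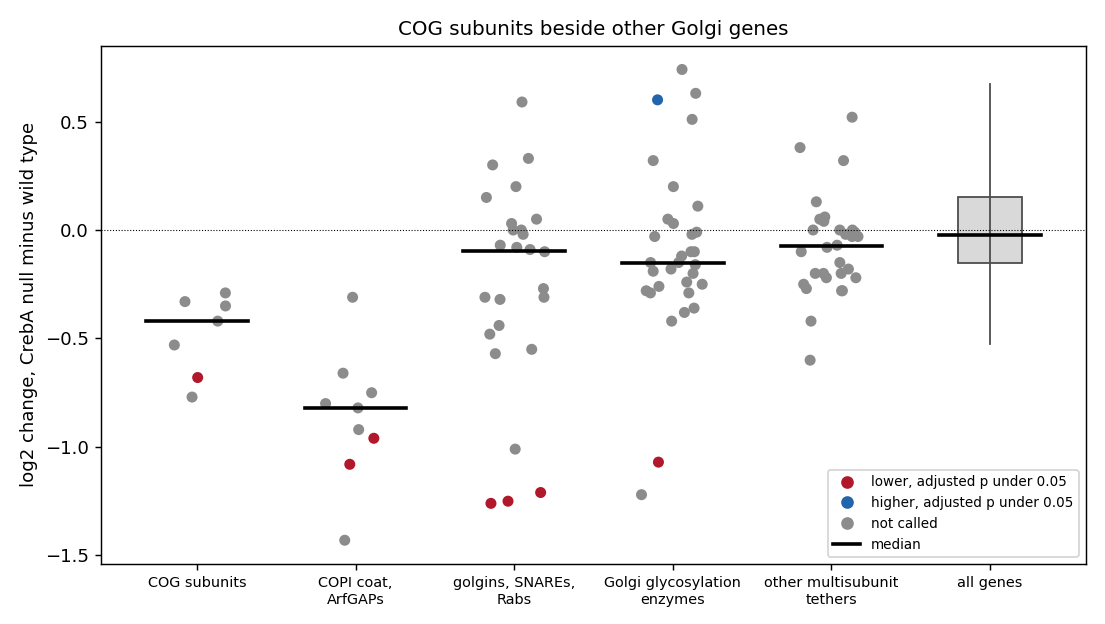
Log2 change (CrebA null minus wild type, y axis) of each measured gene in the COG complex and 4 other Golgi and tether lists, coloured by call, with the median as a bar. The box for all genes spans the 25th to 75th percentile (-0.15 to 0.15) and its line the 5th to the 95th (-0.52 to 0.67). The 7 COG genes and the 9 genes of the COPI and ArfGAP list, Sec71 included, lie below 0, and the other 3 lists have genes on both sides.

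Markers of tissues within the embryo were read beside these counts, and against the block's background of 9.21% of genes lower and 12.6% higher. Without the block 1.02% of all genes were called lower and 1.9% higher. The mean level over 10 measured salivary gland markers was 7.92 to 8.20 in mutants and 8.34 to 8.52 in wild type, with 9 of 10 changes negative, 0 called and 4 called lower with the block, sage among them (-0.97, SE 0.18). The glue gene Sgs3 lay at or under the highest foreign control on 5 of 6 arrays. Over 6 muscle markers the mean level was 10.62 to 11.56 in mutants and 9.79 to 10.96 in wild type, with all 6 changes positive, 0 called without the block and 5 called higher with it. The 6 midgut markers went both ways (median change 0.46), with mex1 (-3.84, SE 0.22) called lower, and alphaTry (1.28, SE 0.16) and Jon25Bi (0.63, SE 0.08) called higher. With the block 1 was lower and 3 were higher. Jon25Bi exceeded the highest foreign control of the array on only 4 of 6 arrays, with wild-type values of 4.91, 4.88 and 4.88. Of 9 fat body and haemocyte markers (median 0.07) Mtp (-1.04, SE 0.18) was called lower, and 1 was called lower and 1 higher with the block. Of 8 tracheal and epidermal markers (median -0.15) 0 were called without the block and 2 were lower with it, and of 6 neuron markers (median 0.19) 0 were called without it and 1 was higher with it. Their part in the COG result was not tested, and in whole embryos fewer cells of a type and less RNA per cell cannot be told apart.

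The direction held in each setting run, while calls depended on the model. In the 11 alternative settings that can move a fitted change (arrays left out, other scalings and array weights), all 77 member changes were negative, from -0.99 to -0.12. Over the 18 alternatives that keep the threshold of 0.05, Cog1 was called in 12, Cog7 in 4 and fws in 0. One of these, the choice of the dimmest probe set, could not move a call, as each member had a single probe set. Under a threshold of 0.01 Cog1 was not called (limma adjusted p 0.0228). Array weights gave 4 members called lower beside 7.08% of genes, housekeeping centring 2 beside 1.63%, the fit without replicate 2 of both genotypes 2 beside 2.7%, and an adjusted p under 0.1 gave 2 beside 2.31%.

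**Figure D4:**
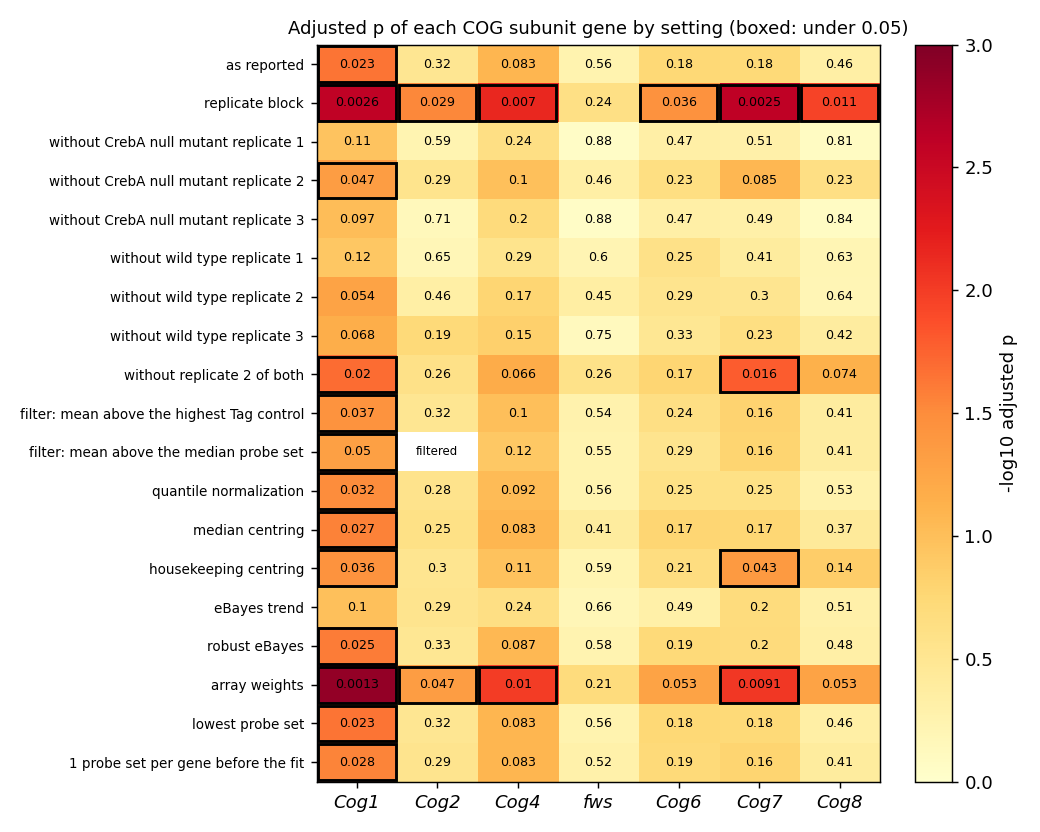
Benjamini-Hochberg adjusted p from limma for each COG gene (columns) under each setting (rows), with darker colour for smaller p (-log10 scale) and boxes for adjusted p under 0.05. Cog1 is boxed in most rows, the replicate block row has 6 boxes, and fws has none.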

How the data were processed

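The deposited table holds log2 RMA expression values of 6 arrays for 18952 probe sets, made by the authors with RMA and Partek, per the submitters' processing notes, with no version, order of steps or filter given. The log base was inferred from the range (2.81 to 14.53). Without 183 controls, 18769 probe sets were tested. The platform annotation gave 1 symbol for 13647, several for 402 and none for 4720. Where a gene had several single-gene probe sets, the brightest over all arrays stood for it (11982 genes). No genome build is given, so no coordinates are printed.

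The comparison was a two-sided limma test (version 3.58.1, lmFit and eBayes, R 4.3.3) with Benjamini-Hochberg adjustment over all probe sets, without further normalization or filter. The title's replicate number was added as a block in a second fit. Deviations of same-number arrays from their genotype means correlated (r 0.639, 0.852 and 0.563), above the bar of 0.1 for treating numbers as pairs. Arrays 1 and 3 also correlated across numbers (0.566 and 0.371), above the same bar, so the bar does not settle how these 2 pair.

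The members and lists were chosen with earlier results of these data known. Named were all COG members, up to 4 called genes of each Golgi list or else its 2 brightest, and the 5 genes most like the COG mean and Cog1. Slh, tissue markers and chromosomal neighbours were named outside this rule, after their values were seen. Alternatives were the block, arrays left out, other scalings and variance models, a filter on dim probe sets, other thresholds and choices of probe set. Of 67 simulated 2-fold changes 43 were recovered by the fit without the block, and of 67 of 1.5-fold 22. Among the 18769 simulated probe sets, 7 of those left unchanged were called. Simulated noise was independent between arrays, without the deviations shared by arrays of the same number, so this count need not hold for the real arrays. Figures used matplotlib 3.10.9 in python 3.11.15.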

Additional observations from a re-analysis of the deposited data

How the results depend on the processing

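The count of COG genes called lower, 1 as reported, was 6 with the replicate block, 4 with array weights, 2 with housekeeping centring, 2 at an adjusted p under 0.1, 0 with an intensity trend and 0 at an adjusted p under 0.01. Leaving out arrays gave 0 to 2, the latter being Cog1 and Cog7 without replicate 2 of both genotypes. The count was 0 without mutant replicate 1, mutant replicate 3 or any 1 wild-type array, and 1 without mutant replicate 2. The count called higher was 0 in all of these. The median change of -0.42 ran from -0.59 (without mutant replicate 2) to -0.32 when arrays were left out. The within-array differences between members kept their sign under quantile normalization, and centring an array cannot change them.

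Counts over the other lists moved likewise. With the replicate block, the COPI list had 8 lower, golgins, SNAREs and Rabs 10 lower and 2 higher, other tethers 3 lower and 1 higher, and glycosylation enzymes 4 lower and 4 higher. The shares of all genes with the block were 9.21% lower and 12.6% higher. With array weights the list counts were 8 for COPI, 8 and 1, 4 and 2, and 2 and 4. Array weights called 848 of all 11982 genes lower and 1137 higher. Housekeeping centring gave 5 COPI genes and 1 tether lower and 0 glycosylation enzymes higher, beside 195 of all 11982 genes lower and 121 higher. An adjusted p under 0.1 gave 4 COPI genes lower, 1 golgin-list gene higher and 2 glycosylation enzymes higher. Over all 11982 genes it gave 277 lower and 460 higher. One under 0.01 gave 0 COPI, 1 golgin-list and 0 glycosylation genes lower and 0 glycosylation genes higher, beside 18 lower and 26 higher over all genes. The count of glycosylation genes called higher was also 0 with an intensity trend and with the filter at the median probe set. Leaving out arrays gave 0 to 7 COPI, 0 to 6 golgin-list, 0 to 1 tether and 0 to 2 glycosylation genes lower, and 0 to 1 tether and 0 to 1 glycosylation genes higher. Over all 11982 genes, leaving out 1 array gave 11 to 82 lower and 16 to 136 higher. Leaving out replicate 2 of both genotypes gave 324 lower and 504 higher. With all arrays the counts were 122 lower and 228 higher. Fewer arrays thus went with fewer calls when 1 was left out, and with more calls without replicate 2 of both genotypes. The cause was not tested.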

Other observations

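Among the other tethers, the genes called with the replicate block, named after their values were seen, were Rint1, a Dsl1 subunit gene (log2 change -0.60, limma adjusted p 0.00559 with the block and 0.169 without it), Trs20 of TRAPP (-0.42, 0.0223 and 0.459) and Exo84 of the exocyst (-0.28, 0.0461 and 0.144), which were lower, and the exocyst gene Sec15 (0.52, 0.0118 and 0.216), which was higher. These are 3 of 30 lower and 1 of 30 higher, beside 9.21% and 12.6% of all genes with the block. Within the exocyst, 6 of 7 measured genes had negative changes, where 54.5% of all genes did, and Sec15 was the exception. The negative changes were small, from -0.28 (Sec8, SE 0.16, and Exo84, SE 0.07) to -0.03 (Sec10, SE 0.24). None of the 7 was called without the block.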
